A study of Mus musculus with 12 samples.

Results

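The cytosolic ribosomal protein genes of mouse embryonic fibroblasts (MEFs), and of the same cells on day 4 of reprogramming, are described here. Their proteins build the large (60S) and the small (40S) subunit of the ribosome. Members were the rows whose name is Rpl or Rps followed by a number and at most 1 letter a, l or x, and whose mean TPM (a level corrected for transcript length and scaled to the same sum in each library) reached 1 in at least 1 of the 6 groups. Of 20325 genes in the tables, 77 had such a name and 75 were members, 44 of the large and 31 of the small subunit. Just outside the threshold lay Rpl3l and Rpl10l, paralogues of Rpl3 and Rpl10, with highest group means of 0.17 and 0.07 TPM. Among the members near it was Rpl39l, with 14.6 TPM.

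The 12 libraries fell into 6 groups of 2. All cells were MEFs with floxed alleles of AF10 (Mllt10), a partner of the histone H3 lysine 79 methyltransferase DOT1L, and carried an inducible cassette of the reprogramming factors OSKM together with rtTA. Day4_creAF10_SGC and Day4_fl_SGC were on day 4 of reprogramming in 5 µM SGC0946, an inhibitor of DOT1L. Day4_creAF10_DMSO and Day4_fl_DMSO were at the same day in DMSO, and MEF_creAF10 and MEF_fl were not reprogrammed. The creAF10 cells, called AF10-deleted here, had received an adenovirus with Cre and the fl cells an empty adenovirus, and no cells without floxed alleles received Cre. Day 4 cells had 2 µg/mL doxycycline, embryonic stem cell medium with LIF, gelatin and DR4 feeder MEFs, while the MEF groups were kept in MEF medium, so day 4 differs from MEFs in all of these at once. Nothing in the labels says that the replicates came from separate animals, and p-values measure the spread between these libraries.

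Each ribosome holds 1 copy of nearly every ribosomal protein, and cells keep the amounts of these proteins close to each other. In mammals most of their mRNAs begin with a C followed by a run of pyrimidines, the terminal oligopyrimidine tract, through which mTOR signalling controls their translation. MYC is known to raise the transcription of ribosomal protein genes and of genes for making ribosomes. Proteins that meet no rRNA are degraded, and free RPL5 and RPL11 bind MDM2 and so link ribosome assembly to p53. Processed pseudogenes are common for this family, so a short read may come from a member or from a copy.

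Libraries held between 14602536 and 22800753 expected counts. Mllt10 had 43.4 and 42.6 CPM (expected counts scaled to the same total in each library) in Day4_creAF10_SGC against 56.2 and 57.9 in Day4_fl_SGC, 45.8 and 43.2 in Day4_creAF10_DMSO against 63.4 and 57.2 in Day4_fl_DMSO, and 32.3 and 32.8 in MEF_creAF10 against 38.9 and 42.8 in MEF_fl, so it was lower in each AF10-deleted library than in the fl libraries of its stage and treatment. The log2 differences were -0.42, -0.44 and -0.34, with edgeR adjusted p = 0.018, 0.0010 and 0.032 with a replicate block per stage, and 1, 0.54 and 0.70 without. All 10 fibroblast markers had reads in every library, and their summed level was 21740 to 23054 CPM on day 4 against 45668 to 57638 in MEFs. Macrophage and blood cell markers summed to 51.7 to 76.6 CPM on day 4 against 5.1 to 12 in MEFs, with 0 to 1 of the 10 at 0 on day 4 and 1 to 3 at 0 in MEFs. Sums of the 4 endothelial markers were 85.1 to 128.1 CPM on day 4 against 17.8 to 19.8 in MEFs, and those of the 4 keratinocyte markers were 4.5 to 7.3 against 3.7 to 4.7. The part of these cells, and of the DR4 feeders, in the results below was not tested, and fewer cells of a type cannot be told apart from less RNA per cell.

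The start regions of 55 of the 75 members are in RefSeq's promoter table (build GRCm38.p6, which is not the build of the counts). A run of 8 or more pyrimidines within 20 bases of an annotated start was present in 31 of the 55 (56.4%), against 23.7% of the 27025 genes in the table. A C at the annotated start with 4 pyrimidines after it was present in 12 (21.8%) against 3.0% of all genes. This match needs the annotated start to be exact to the base, so it cannot count the members with such a tract. The letters CCGGAAG, searched on both strands over 250 bases before and 50 after the start, were present in 23 (41.8%) against 9.9%, CACGTG in 6 (10.9%) against 8.1%, and TATAAA in 5 (9.1%) against 15.7%. A match says only that the letters stand in this window. The sequences below run from 60 bases before the annotated start to 20 bases from it on, with a pyrimidine run near the start or CCGGAAG in capitals on either strand. Rps12 was the most abundant member, and Rpl11 and Rpl14 were among 67 members higher on day 4 in both cell types. All 3 have a run near the start (in Rpl11 it adjoins CCGGAAG and goes on past the printed end). Rps16 and Rpl12, with the largest day 4 differences in fl cells, have neither feature in this window. Rpl26 and Rpl41, of which the second passed the day 4 test in AF10-deleted cells alone, both hold CCGGAAG. In Rpl10a and Rpl19, not printed, the run stood near the second annotated start and not near the first. Whether either feature goes with level or change was not tested.
Rps12, chr10:23787190-23787269, - strand: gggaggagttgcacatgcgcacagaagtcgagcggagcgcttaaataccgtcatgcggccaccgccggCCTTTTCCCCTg
Rpl11, chr4:136053374-136053453, - strand: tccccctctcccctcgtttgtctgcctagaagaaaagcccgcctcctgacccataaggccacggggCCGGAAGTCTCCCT
Rpl14, chr9:120571457-120571536, + strand: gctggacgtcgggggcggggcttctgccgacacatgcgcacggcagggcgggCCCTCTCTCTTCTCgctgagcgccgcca
Rps16, chr7:28350629-28350708, + strand: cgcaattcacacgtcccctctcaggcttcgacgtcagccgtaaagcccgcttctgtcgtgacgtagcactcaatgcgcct
Rpl12, chr2:32961652-32961731, + strand: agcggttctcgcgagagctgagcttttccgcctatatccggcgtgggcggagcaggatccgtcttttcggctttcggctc
Rpl26, chr11:68901506-68901585, + strand: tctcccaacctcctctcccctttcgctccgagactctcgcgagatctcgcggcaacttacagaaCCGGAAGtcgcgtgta
Rpl41, chr10:128549149-128549228, - strand: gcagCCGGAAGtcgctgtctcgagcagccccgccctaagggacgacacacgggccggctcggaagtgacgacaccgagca

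The level of the members was set out by TPM, which allows genes of different length to be compared. The median member had 2708 TPM in Day4_creAF10_SGC, 2785 in Day4_fl_SGC, 2933 in Day4_creAF10_DMSO, 2814 in Day4_fl_DMSO, 1543 in MEF_creAF10 and 1479 in MEF_fl. Medians of the small subunit were above those of the large subunit in each group, at 3025 against 2322 TPM in Day4_fl_DMSO and 1612 against 1412 in MEF_fl. The most abundant members were Rps12, a protein of the beak of the small subunit, with a mean of 5750 TPM over the groups, then Rps20 (4846), Rps18 (4660), Rps2 (4352) and Rpl41 (4203). Rps12 had 6661 ± 3.6 TPM (SD, n = 2) in Day4_creAF10_SGC, 6519 ± 648 in Day4_fl_SGC, 6912 ± 619 in Day4_creAF10_DMSO, 6776 ± 432 in Day4_fl_DMSO, 3567 ± 54.5 in MEF_creAF10 and 4066 ± 44.3 in MEF_fl. Among the least abundant by TPM were Rpl39l (13.2), Rps23 (108), Rps27 (151) and Rps15a (328 TPM). TPM divides by the annotated length, which was 5134 nt for Rps15a and 615 nt for Rps16. In Day4_fl_DMSO Rps15a had 379 TPM and Rps16 3623, whereas their CPM (TMM-scaled) were 978 and 915 against 1068 and 932. A low TPM of Rps15a therefore does not mean few reads. The order of the members differed little between groups: across the 75 members, which are not independent replicates, Spearman's rho of the group means was 0.956 between Day4_fl_DMSO and MEF_fl.

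Together the members made up 21.5% and 19.9% of TPM in Day4_creAF10_SGC, 21.5% and 20.2% in Day4_fl_SGC, 22.6% and 20.8% in Day4_creAF10_DMSO, 21.6% and 19.6% in Day4_fl_DMSO, 12.4% and 11.5% in MEF_creAF10 and 11.7% and 11.3% in MEF_fl. All 8 day 4 libraries lay above all 4 MEF libraries, and replicate 1 lay above replicate 2 in each group. The share in Day4_fl_DMSO was 1.79 times that in MEF_fl. The TPM-weighted mean transcript length was 1912 to 2059 nt over the day 4 libraries against 2368 to 2406 nt over the MEF libraries, and its part in the result was not tested. As a share of expected counts, which does not divide by length, the same ratio was 2.13.

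**Figure D1:**
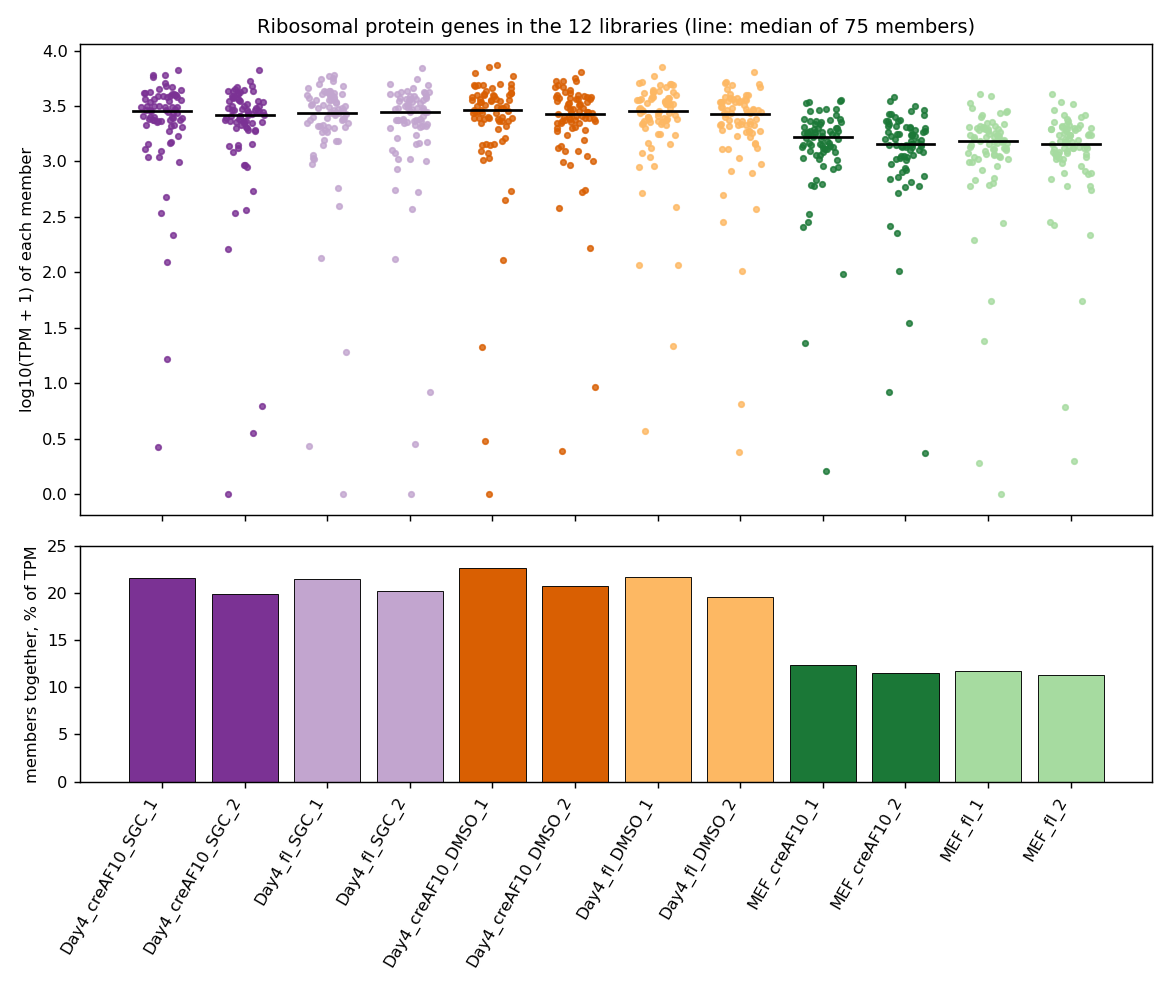
Upper panel: each point is 1 of the 75 members in 1 library, as log10(TPM + 1), and the line is the median. Lower panel: the members' summed share of TPM in percent. The library medians lie between 2640.5 and 2906 TPM on day 4, above the 1422 to 1674 TPM of the MEF libraries, and 4 members stand apart at low values.

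Some of the low values stood beside a near-identical row in the tables. Stretches of 50 bases were compared between the transcripts of the tables' genes, and 8 members shared at least 100 of them with a copy elsewhere in the genome. Another 4, Rpl5, Rps25, Rpl31 and Rps27a, shared at least 100 with a gene that overlaps them. Rps27, a small subunit protein, shared 292 of its 296 stretches with Gm9846, a row with an annotated coding sequence on chromosome 9, while Rps27 itself is on chromosome 3 (GRCm38). Their coding sequences, 255 bases each, had 0 differences in GENCODE M21, so no read inside this frame tells them apart. It is shown because every value of Rps27 here rests on how reads of this frame were divided.
Rps27 and Gm9846: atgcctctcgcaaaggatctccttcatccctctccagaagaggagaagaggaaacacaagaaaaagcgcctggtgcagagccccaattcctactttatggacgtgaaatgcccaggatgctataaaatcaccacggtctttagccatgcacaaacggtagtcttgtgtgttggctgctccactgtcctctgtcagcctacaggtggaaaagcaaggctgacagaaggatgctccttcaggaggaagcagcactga
Rps27 was listed with 583 and 0 expected counts in Day4_creAF10_SGC, 0.01 and 0 in Day4_fl_SGC, 0.02 and 1458 in Day4_creAF10_DMSO, 292 and 878 in Day4_fl_DMSO, 588 and 293 in MEF_creAF10 and 0.02 and 586 in MEF_fl. Gm9846 held 7761 to 11560 counts on day 4 and 4042 to 7040 in MEFs. The member took at most 12.9% of the sum of both rows and 0% in several libraries, in no order that followed the groups.

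The same was seen for other members. Rps23 had 167 to 747 counts beside 8086 to 19395 in Gm15450, with 0 differences over 425 aligned bases of its frame. Rpl34 and Rpl34-ps1, which differ by T132C and C318G (the base of Rpl34 first, its position counted from 1 at the A of the start codon, then the base of the copy), shared their reads unevenly, with 94.5% and 40.5% assigned to Rpl34 in MEF_creAF10 and 13.9% in Day4_creAF10_SGC replicate 2. Single values of these 3 members are therefore uncertain, and their sums with the copy were more even. The sum for Rps27 was 524 and 613 CPM in Day4_creAF10_SGC, 612 and 531 in Day4_fl_SGC, 789 and 654 in Day4_creAF10_DMSO, 658 and 554 in Day4_fl_DMSO, 285 and 322 in MEF_creAF10 and 333 and 336 in MEF_fl. For the 4 members with an overlapping gene, the library kit does not mark strand, so reads of both genes cannot be told apart there.

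**Figure D2:**
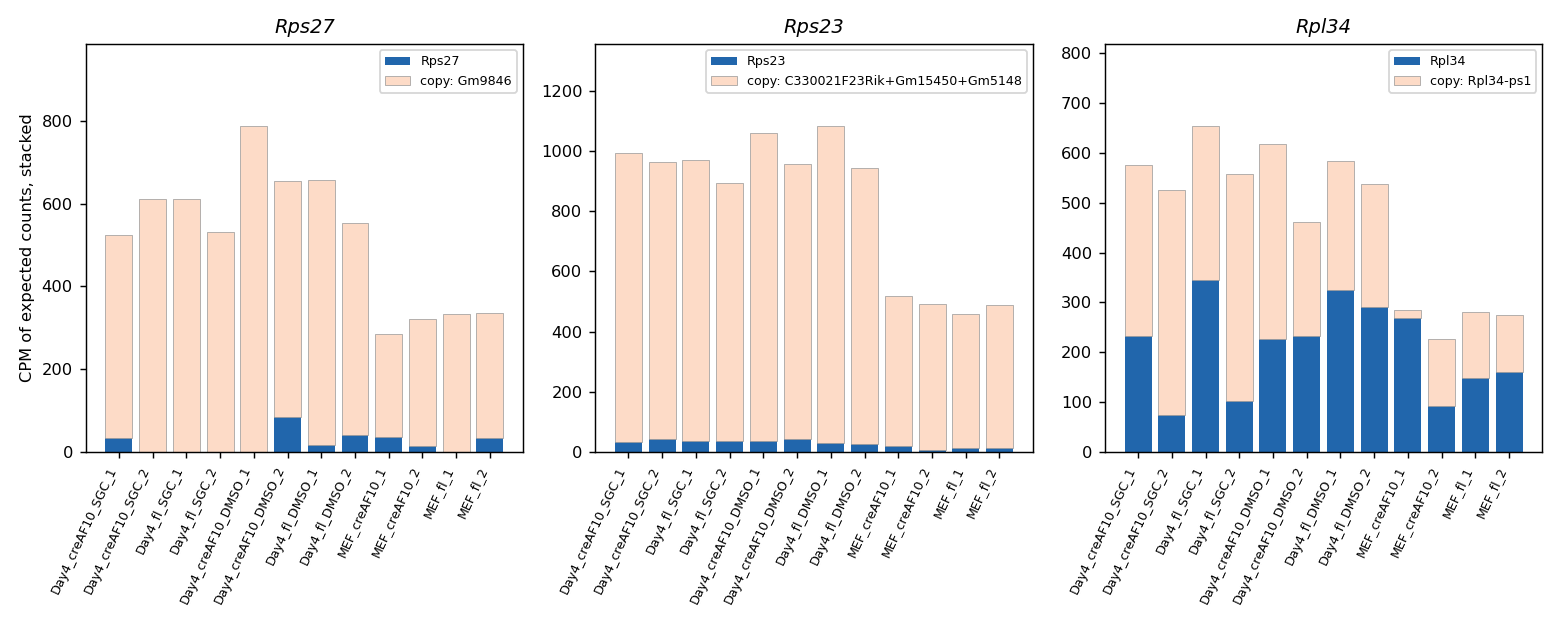
Stacked bars of CPM (expected counts over the library total) for Rps27, Rps23 and Rpl34 (blue) and their copy rows (pale) in the 12 libraries. The blue part is at most 12.9% for Rps27 and varies from 13.9% to 94.5% for Rpl34, while the whole bars are higher in all 8 day 4 libraries than in the 4 MEF libraries.

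Day 4 was set against MEFs to describe how the members differed with reprogramming, its medium and its feeders. Of 75 members, 67 were higher in Day4_fl_DMSO than in MEF_fl and 0 were lower (quasi-likelihood test of edgeR, with p adjusted by Benjamini-Hochberg and called under 0.05), where 25.7% of the 13936 genes tested were called higher and 26.3% lower. Their median log2 change was 0.91, against 0.01 over all genes tested. In AF10-deleted cells 70 of 75 were higher and 0 lower (background 27.5% higher and 27.5% lower), with a median of 0.99 against 0.02. The same 67 members were called in both, 3 in AF10-deleted cells alone and 5 in neither. Both subunits took part, with 38 of 44 large and 29 of 31 small subunit members called in fl cells (medians 0.90 and 0.96) and 40 and 30 in AF10-deleted cells. Every day 4 library lay above every MEF library for 70 members, and the share of all genes with such a separation was not counted.

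The changes had a narrow spread. In fl cells the quartiles of the members' log2 change were 0.81 and 1.05, 24 members were above 1, 47 between 0.5 and 1, and 4 below 0.5. Over the 75 members Spearman's rho was 0.175 between this change and the member's mean level, 0.023 with transcript length, and 0.604 with the change in AF10-deleted cells, which uses other libraries but the same stages. These are descriptions across genes of the same libraries.

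Rps16, a small subunit protein whose tail reaches the tRNA in the peptidyl site, had the largest change in both cell types. It had 1352 and 1081 CPM (TMM-scaled, as are all CPM of members below) in Day4_creAF10_DMSO against 463 and 394 in MEF_creAF10, and 1068 and 932 in Day4_fl_DMSO against 378 and 357 in MEF_fl. No MEF library came near the day 4 libraries, and the log2 change was 1.51 ± 0.13 (SE) in AF10-deleted and 1.45 ± 0.13 in fl cells (edgeR adjusted p = 1.2e-05 and 1.7e-05). Rpl12, at the base of the stalk where translation factors bind, had 1799 and 1458 CPM in Day4_creAF10_DMSO against 630 and 608 in MEF_creAF10, and 1425 and 1270 in Day4_fl_DMSO against 580 and 511 in MEF_fl. Its log2 change was 1.39 ± 0.14 in AF10-deleted and 1.30 ± 0.14 in fl cells.

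Rps29, of the head of the small subunit, had 601 and 468 CPM in Day4_creAF10_DMSO against 268 and 212 in MEF_creAF10, and 458 and 376 in Day4_fl_DMSO against 168 and 173 in MEF_fl, a log2 change of 1.16 ± 0.16 and 1.29 ± 0.16. Rpl26, which lies at the exit of the peptide tunnel and is known to bind p53 mRNA, rose less, by 1.08 ± 0.14 in AF10-deleted and 0.78 ± 0.14 in fl cells. Rpl3, which reaches towards the peptidyl transferase centre, rose by 1.03 ± 0.10 and 1.13 ± 0.10. Rpl11, which binds MDM2 outside the ribosome, rose by 1.02 ± 0.09 and 0.99 ± 0.09, and Rpl10a, of the L1 stalk, by 1.21 ± 0.10 and 1.14 ± 0.10. Rpl32 rose by 1.21 ± 0.11 in fl cells, Rpl14 by 1.15 ± 0.17, and Rpl19 and Rpl4 by 0.87 ± 0.08 and 1.06 ± 0.11.

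At the other end stood Rpl41, the smallest ribosomal protein, with 1017 and 937 CPM in Day4_creAF10_DMSO against 639 and 677 in MEF_creAF10, and 832 and 765 in Day4_fl_DMSO against 728 and 623 in MEF_fl. Its change passed the test in AF10-deleted cells (0.57 ± 0.17, adjusted p = 0.017) and not in fl cells (0.24 ± 0.17, adjusted p = 0.25). Rpl37a had a similar pattern, with 0.64 ± 0.23 (adjusted p = 0.043) in AF10-deleted and 0.40 ± 0.23 (adjusted p = 0.17) in fl cells. For neither gene was the difference between the cell types called (interaction of AF10 deletion and stage, 0 members called). Rps27l, a paralogue of Rps27 that p53 induces, rose by 0.73 ± 0.10 in AF10-deleted and 0.49 ± 0.10 in fl cells. Rpl39, of the peptide tunnel, differed between replicates within groups and missed the threshold, at 0.65 ± 0.37 (adjusted p = 0.16) in AF10-deleted and 0.91 ± 0.37 (adjusted p = 0.069) in fl cells.

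Rps27, Rpl34 and Rps23, which have a copy row, were not called in fl cells. Summed with their copies, an alternative added after the data were seen, all 3 were higher on day 4 in fl cells, by 0.69 ± 0.13, 0.85 ± 0.16 and 0.94 ± 0.10. With all copies summed the count was 73 members in AF10-deleted and 71 in fl cells, and the share of all genes called in that fit is not given here. With a replicate block per stage it was 71 in AF10-deleted and 70 in fl cells without summing, with backgrounds of 35.6% and 33.9% called higher. Without replicate 1 or 2 of Day4_fl_DMSO, the members' median log2 change in fl cells was 0.817 and 1.026. In AF10-deleted cells it was 0.943 and 1.089 without replicate 1 or 2 of Day4_creAF10_DMSO. Without replicate 1 or 2 of MEF_creAF10 it was 1.101 and 0.938. Medians without a MEF_fl library, and those of all genes in these fits, are not given here. Under library totals with no scaling factor, the median of all genes moved to 0.17 in AF10-deleted and 0.18 in fl cells, and the members' medians were 1.14 and 1.08. Genes called then split into 4955 higher and 2987 lower in AF10-deleted cells (3833 and 3832 with TMM) and 4922 higher and 2776 lower in fl cells (3588 and 3659 with TMM).

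**Figure D3:**
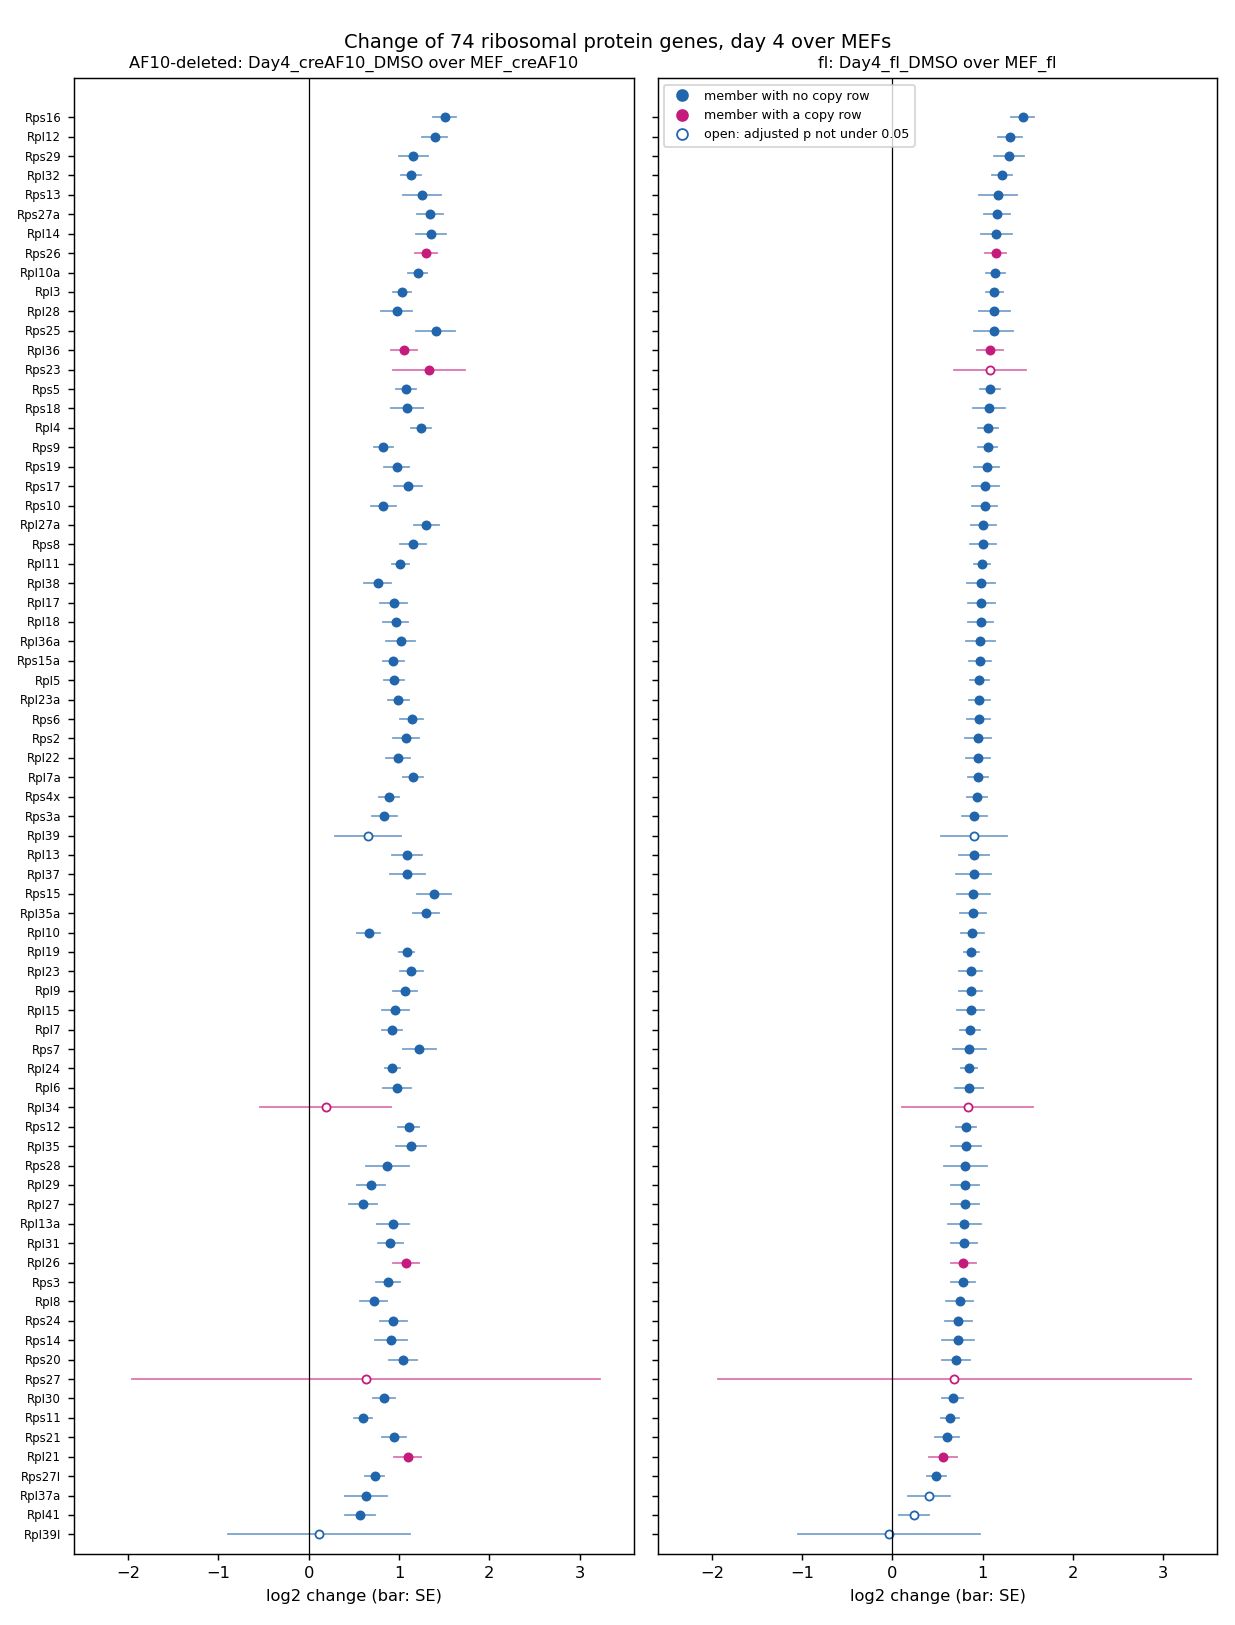
Log2 change (horizontal axis, bar: SE) of 74 of the 75 members, day 4 in DMSO over MEFs, in AF10-deleted cells (left) and fl cells (right), in the order of fl cells. Filled points passed the adjusted p threshold of 0.05, and members with a copy row are pink. Nearly all points lie between 0.5 and 1.5, with Rpl39l near 0 and a wide bar for Rps27.

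Other genes of the translation apparatus were counted in the same comparison, where 27.5% of all genes were called higher and 27.5% lower in AF10-deleted cells, and 25.7% and 26.3% in fl cells. All 10 ribosomal proteins or relatives whose names the rule does not take were higher in both cell types, with medians of 0.89 in AF10-deleted and 0.88 in fl cells. Rpsa, the laminin receptor homologue, changed by 1.23 ± 0.13 in fl cells, the stalk protein Rplp2 by 1.00 ± 0.10, and the stalk protein Rplp0 by 0.95 ± 0.10. Of 14 elongation factors and other genes known for terminal oligopyrimidine mRNAs, 14 were higher in AF10-deleted and 13 in fl cells, among them Nap1l1 (1.29 ± 0.11) and Eef1b2 (1.24 ± 0.15). Tpt1 was at 0.27 ± 0.12 (adjusted p = 0.082) in fl cells. Ribosome biogenesis genes were higher for 33 of 49 and lower for 2 in AF10-deleted cells, and higher for 37 and lower for 1 in fl cells. Npm1, a nucleolar chaperone, changed by 1.58 ± 0.13 in fl cells, Dkc1, of the pseudouridylation complex, by 1.44 ± 0.10, and Bysl fell by 0.35 ± 0.10.

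Initiation factors were more mixed, with 14 of 36 higher and 3 lower in AF10-deleted cells and 16 higher and 1 lower in fl cells. Eif4b changed by 1.22 ± 0.10 and Eif4g2 by -0.40 ± 0.09 in fl cells. Of 32 subunits and factors of RNA polymerases I and III, which make rRNA and tRNA, 14 were higher and 2 lower in AF10-deleted cells, and 17 higher and 1 lower in fl cells, led by Polr3g (2.46 ± 0.16). Of 18 regulators, 3 were higher and 3 lower in AF10-deleted cells, and 5 higher and 1 lower in fl cells, where the share higher was near that of all genes. Myc, which the cassette also encodes, changed by 4.32 ± 0.18, and Max, its partner, by 0.43 ± 0.08. Of 76 mitochondrial ribosomal protein genes 48 were higher and 1 lower in AF10-deleted cells, and 35 higher and 1 lower in fl cells, with medians of 0.41 and 0.33. The median of the 870 other genes with transcripts under 1000 nt was 0.30 in AF10-deleted and 0.19 in fl cells, with 327 and 251 higher and 97 and 108 lower.

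AF10 deletion was compared with the empty virus within each stage and treatment. In MEFs 0 members were called by edgeR and 0 by DESeq2 (background 0% in either direction with edgeR, and 0.00935% higher and 0.178% lower with DESeq2), with 1 member at an unadjusted p under 0.05, and the members' median log2 change was 0.05, or -0.04 and 0.15 without replicate 1 or 2 of MEF_creAF10. With a replicate block per stage, which takes out the difference between the replicate numbers, 1 member was higher (background 0.122% higher and 0.84% lower), Rps29 at 0.48 ± 0.09 (adjusted p = 0.0023), and summing copies left 1 (background 0.122% higher and 0.862% lower). It had 268 and 212 CPM in MEF_creAF10 against 168 and 173 in MEF_fl, so the groups did not overlap. The share of all genes at an unadjusted p under 0.05 is not given for AF10 deletion in MEFs.

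On day 4 in DMSO, most members had slightly higher values in AF10-deleted cells than in fl cells. Of 75 members 65 had a positive log2 change, against 50.8% of all genes tested, and 48 were positive in both replicates, against 33.5% of all genes. The members' median was 0.14, or 0.13 and 0.17 within replicates 1 and 2. It was 0.07 and 0.22 without replicate 1 or 2 of Day4_creAF10_DMSO, and 0.24 and 0.04 without replicate 1 or 2 of Day4_fl_DMSO. Both edgeR without block and DESeq2 called 0 members, with 12 and 15 at an unadjusted p under 0.05 (988 of all genes with edgeR), and a background of 0% with edgeR and 0.0863% higher and 0.0288% lower with DESeq2. With the block per stage 10 were higher and 0 lower, with backgrounds of 3.37% higher and 3.37% lower. They were Rpl21 (0.46 ± 0.08, adjusted p = 0.00046), Rpl27a (0.35 ± 0.08), Rpl23 (0.32 ± 0.07), Rpl35 (0.35 ± 0.08) and Rpl26 (0.33 ± 0.08), and with higher p Rpl35a, Rps29, Rps20, Rps16 and Rpl12. With copies summed as well 11 were higher (background 3.45% higher and 3.39% lower).

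Rpl21 had 1013 and 1024 CPM in Day4_creAF10_DMSO against 800.0 and 683 in Day4_fl_DMSO, and the groups did not overlap. In MEFs it had 533 and 421 CPM in MEF_creAF10 against 548 and 458 in MEF_fl. With the block per stage, its effect of AF10 deletion differed by 0.55 ± 0.11 between day 4 in DMSO and MEFs. The edgeR adjusted p was 0.0078, with a background of 0.933% higher. Summed with its copy Gm9104, the difference was 0.45 with that block (edgeR adjusted p = 0.036). For this interaction edgeR without block and DESeq2 called 0 members, with 1 and 2 at an unadjusted p under 0.05. The share of all genes under this p is not given here.

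Some lists outside the family also had mostly positive values in this comparison. Of the 870 other genes with transcripts under 1000 nt, 700 had a positive change, with a median of 0.13 and 78 called higher with the block per stage. Of 76 mitochondrial ribosomal protein genes 72 were positive (median 0.12), and of 71 subunits of oxidative phosphorylation 59 (median 0.16). Initiation factors (20 of 36 positive, median 0.01) and ribosome biogenesis genes (27 of 49, median 0.02) were near the median of all genes, 0.00. The mean transcript length was 1912 and 1950 nt in Day4_creAF10_DMSO against 1988 and 2059 nt in Day4_fl_DMSO. The part of transcript length in the members' difference was not tested.

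In SGC0946, 36 of 75 members were positive after AF10 deletion, with a median of -0.01, which was 0.00 with library totals. It was -0.08 and 0.06 without replicate 1 or 2 of Day4_creAF10_SGC, and 0.04 and -0.05 without replicate 1 or 2 of Day4_fl_SGC. The shares of all genes with a positive change, or at an unadjusted p under 0.05, are not given for this comparison. The test called 0 with edgeR without block, with 3 at an unadjusted p under 0.05, and 1 with DESeq2, which was Rps27, whose reads are shared with its copy (background 0.0144% higher and 0% lower with DESeq2, 0% with edgeR). With the block per stage 3 were lower and 0 higher (background 0.1% lower and 0.0718% higher): Rpl26 (-0.46 ± 0.08, adjusted p = 0.006, but -0.29 and adjusted p = 0.15 when summed with its copy), Rps16 (-0.38 ± 0.08, adjusted p = 0.022) and Rpl28 (-0.36 ± 0.07, adjusted p = 0.037).

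SGC0946 itself was compared with DMSO on day 4. These comparisons share their DMSO libraries with those of AF10 deletion in DMSO. For SGC0946 the shares of all genes with a positive change, or at an unadjusted p under 0.05, are not given here. In AF10-deleted cells 15 of 75 members had a positive change, the median was -0.08 (-0.15 and -0.02 without replicate 1 or 2 of Day4_creAF10_SGC, and -0.03 and -0.16 without replicate 1 or 2 of Day4_creAF10_DMSO), and 5 were positive and 45 negative in both replicates (29.5% and 29.7% of all genes). Without block 0 members were called by edgeR (3 at an unadjusted p under 0.05; background 0.00718% higher and 0% lower), and DESeq2 called 1, Rpl26, lower (background 0.112% lower). With the block per stage 7 were lower and 0 higher, with backgrounds of 2.47% lower and 5.28% higher. They were Rpl26 (-0.56 ± 0.08, adjusted p = 1.8e-05), Rps16 (-0.44 ± 0.08), Rpl13a (-0.33 ± 0.08), Rps15a (-0.32 ± 0.08), Rpl28 (-0.30 ± 0.07), Rps28 and Rpl12.

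In fl cells 47 members were positive in SGC0946 and the median was 0.05, or 0.14 and -0.07 without replicate 1 or 2 of Day4_fl_DMSO. Without block edgeR called 0 (1 at an unadjusted p under 0.05; background 0.883% higher and 0.23% lower), and DESeq2 called 1, Rps27, lower (background 0.61% lower). The block per stage called 7 higher and 1 lower, with backgrounds of 10.6% and 7.1%, shares of all genes close to 7 and 1 of 75 or above them. Rpl21 was higher by 0.33 ± 0.08, and Rps9, at the mRNA entry of the small subunit, was lower by -0.25 ± 0.08.

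**Figure D4:**
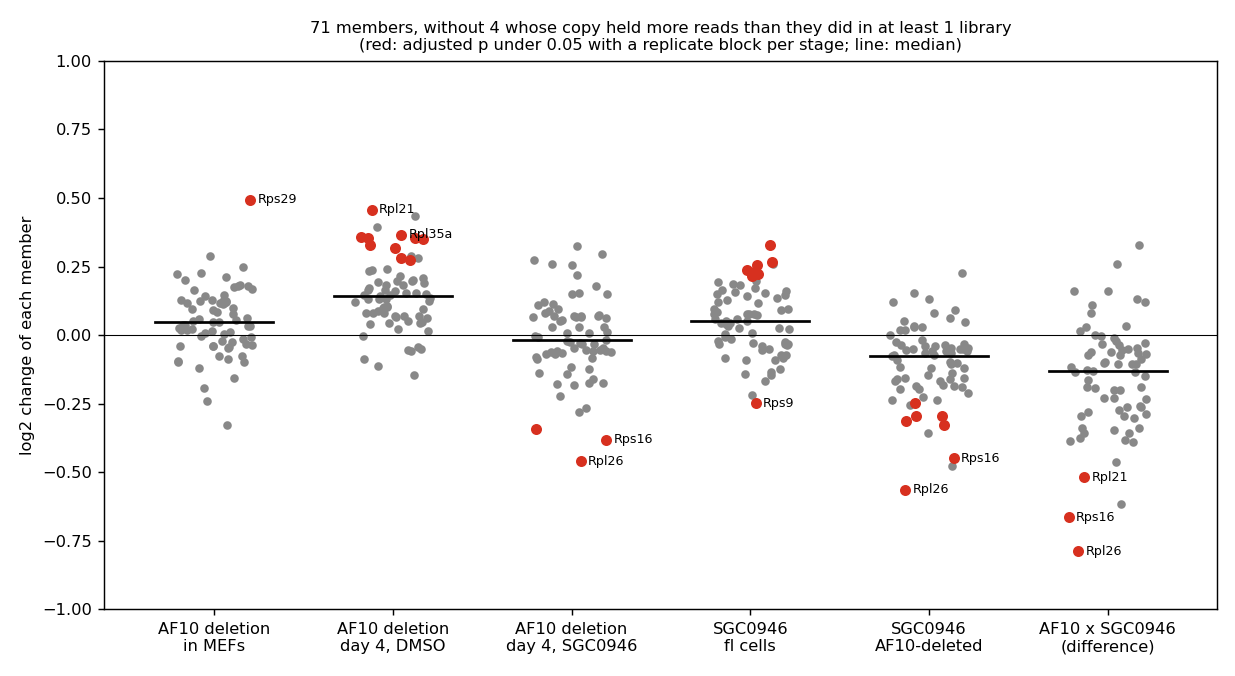
Log2 change of 71 members, without those whose copy held more reads than they did in at least 1 library, in 5 comparisons within a stage and, at the right, the difference between the AF10 effects in SGC0946 and in DMSO. Red points passed the adjusted p threshold of 0.05 with a replicate block per stage, and lines are medians. Medians stay between -0.2 and 0.2, and Rpl26, shown without the reads of its copy, and Rps16 are the lowest called points at the right.

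The difference between the effect of AF10 deletion in SGC0946 and that in DMSO was tested as an interaction. The members' median was -0.13 (-0.20 and -0.05 without replicate 1 or 2 of Day4_creAF10_SGC, -0.06 without replicate 1 of Day4_creAF10_DMSO, and -0.24 and -0.05 without replicate 1 or 2 of Day4_fl_DMSO), and 13 were positive. Without block edgeR and DESeq2 called 0 members, with 4 and 7 at an unadjusted p under 0.05. The shares of all genes that were positive or under this p are not given here. These counts can therefore not be read as particular to the members. With the block per stage 3 were lower and 0 higher (background 0.323% lower and 0.0718% higher): Rpl26 (-0.80 ± 0.11, adjusted p = 0.00024), Rps16 (-0.66 ± 0.11, adjusted p = 0.0015) and Rpl21 (-0.53 ± 0.11, adjusted p = 0.018). In the list of relatives Rplp2 was lower too, at -0.51 ± 0.10 (adjusted p = 0.018). For the 870 other short transcripts the median was -0.10, with 269 positive, and its part in the members' values was not tested.

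Rps16 had 903 and 879 CPM in Day4_creAF10_SGC against 1188 and 1133 in Day4_fl_SGC, and 1352 and 1081 in Day4_creAF10_DMSO against 1068 and 932 in Day4_fl_DMSO. Both AF10-deleted libraries lay below both fl libraries in SGC0946 and above them in DMSO. Rpl26 had 693 and 630 CPM in Day4_creAF10_SGC against 923 and 896 in Day4_fl_SGC, and 1055 and 902 in Day4_creAF10_DMSO against 874 and 683 in Day4_fl_DMSO. Here too the AF10-deleted libraries were the lower ones in SGC0946 and the higher ones in DMSO. Rpl28, a large subunit protein, had 696 and 501 CPM in Day4_creAF10_SGC against 802 and 715 in Day4_fl_SGC.

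Rpl26 has a copy, Gm10136, on chromosome 19, while Rpl26 is on chromosome 11. The copy took 1833 and 1975 counts in Day4_creAF10_SGC and 325 to 707 in the other 10 libraries, so the part of the sum assigned to Rpl26 was 87.3% and 83.5% in Day4_creAF10_SGC and at least 93.7% elsewhere. Over 435 aligned bases the copy differs from the coding sequence by G160A, C177T, A252C, A287C and G417A (numbered as above, the base of Rpl26 first). The stretch of Rpl26 with 4 of these bases is shown, those bases in capitals, because only reads over such bases tell the rows apart within the frame.
Rpl26, coding bases 150 to 297: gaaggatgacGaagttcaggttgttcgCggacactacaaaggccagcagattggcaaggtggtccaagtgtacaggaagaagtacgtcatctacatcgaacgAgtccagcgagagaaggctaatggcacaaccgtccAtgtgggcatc
Summed with the copy, the level was 826 and 792 CPM (over the library total) in Day4_creAF10_SGC against 1003 and 965 in Day4_fl_SGC, and 1126 and 964 in Day4_creAF10_DMSO against 946 and 733 in Day4_fl_DMSO. With this sum and the block per stage, the effect of AF10 deletion in SGC0946 lost its call, as given above, that of SGC0946 in AF10-deleted cells was -0.38 (adjusted p = 0.0021), and the interaction was -0.61 (adjusted p = 0.0047).

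The paralogues Rpl39 and Rpl39l, of which the second is known from male germ cells in mice, can be told apart over most of their frame. Their coding sequences, 156 bases each, differ at 23 bases (85.3% identity), shown in capitals.
Rpl39: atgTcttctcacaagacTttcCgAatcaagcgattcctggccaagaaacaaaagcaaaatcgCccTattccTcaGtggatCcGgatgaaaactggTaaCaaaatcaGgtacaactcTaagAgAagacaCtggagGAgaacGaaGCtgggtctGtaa
Rpl39l: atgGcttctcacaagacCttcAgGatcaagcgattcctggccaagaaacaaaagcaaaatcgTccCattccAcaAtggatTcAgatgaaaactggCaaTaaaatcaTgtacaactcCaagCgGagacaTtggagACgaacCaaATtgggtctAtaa
Rpl39l had 5.92 and 1.89 CPM in Day4_creAF10_SGC, 6.80 and 2.77 in Day4_fl_SGC, 7.86 and 3.18 in Day4_creAF10_DMSO, 7.81 and 1.97 in Day4_fl_DMSO, 7.82 and 2.49 in MEF_creAF10 and 8.12 and 1.76 in MEF_fl. Replicate 1 was higher than replicate 2 in all 6 groups, whereas the groups overlapped. Replicate 2 minus replicate 1 was -1.55 ± 0.14 on day 4 and -1.89 ± 0.20 in MEFs (edgeR with a term per group and replicate within a stage, adjusted p = 4.8e-09 and 2.6e-08). Rpl39 had 727 and 715 CPM in Day4_creAF10_SGC, 745 and 716 in Day4_fl_SGC, 877 and 440.1 in Day4_creAF10_DMSO, 836 and 529 in Day4_fl_DMSO, 477 and 360.1 in MEF_creAF10 and 456 and 272 in MEF_fl, with replicates close in SGC0946 and apart in the other groups.

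**Figure D5:**
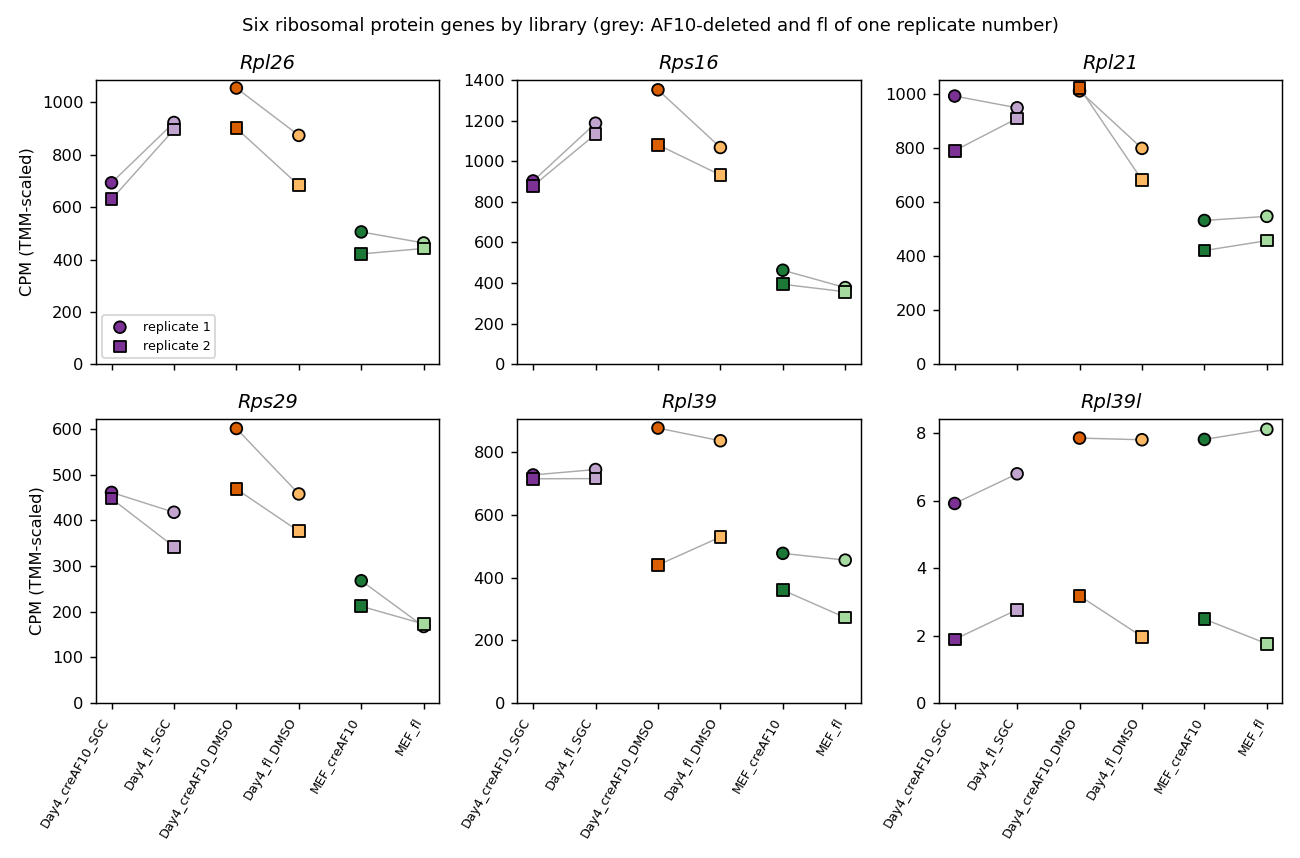
CPM (TMM-scaled, vertical axes from 0) of 6 members in the 12 libraries. Circles are replicate 1, squares replicate 2, and grey lines join AF10-deleted and fl libraries of the same stage, treatment and replicate number. Rpl26 and Rps16 fall below their fl partners in SGC0946 and lie above them in DMSO, and Rpl39l parts the replicate numbers, with at least 5.92 CPM in replicate 1 and at most 3.18 in replicate 2.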

How the data were processed

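RNA with poly(A) tails was made into libraries with a TruSeq kit that does not mark strand, per the labels' protocols. The submitters' processing notes name RSEM, Bowtie and the mouse build mm9 for the authors' quantification. Versions and options are not given in the sources used here. Expected counts, TPM and FPKM stand in each deposited table, and FPKM was not used. Rows were matched by transcript identifier, since 25 gene names had become dates in the tables of 10 libraries.

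Expected counts were rounded and tested with edgeR 4.0.16 in R 4.3.3 (TMM, filterByExpr, robust quasi-likelihood fit over the 12 libraries, a term per group, Benjamini-Hochberg adjustment over the 13936 genes kept). All 75 members passed the filter, and some values are not reported here. The SE is the log2 change divided by the square root of F. The fits were run on simulated counts that held no difference between replicate numbers. That run could not check how the blocks handle such a difference. DESeq2 1.42.0, other scalings, no filter, replicate blocks and single libraries left out were tried. Copy rows were found with GENCODE M21 transcripts (GRCm38), and summing them was chosen after seeing the data. No genome of build mm9 was used, so member coordinates come from RefSeq's promoter table alone.

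The members and lists were chosen with earlier results of these data known. Named genes were the 3 markers Rpl26, Rps16 and Rps29, the strongest calls per comparison in the fits with and without block, the 5 highest and 5 lowest by TPM, the 5 with the widest and narrowest range, and paralogues; not every one is named, and members named for their copies (Rpl34, Rps23) or from DESeq2 were picked after their values were seen. Deviations from group means of same-numbered libraries correlated at 0.286 to 0.737 over 15 pairs of groups. They were 0.413 to 0.737 within a stage and 0.286 to 0.34 across stages. The labels do not state a pairing, so the replicate blocks rest on these same data. In a fit with a replicate block per stage the p-values within a stage set the mean change against a spread that was moderated over all genes. That fit left 4 residual degrees of freedom over both stages, and the spread borrowed from other genes weighed as a median of 22.41. Replicates can therefore differ by more than the SE shows: Rps29 in MEFs changed by 0.68 and 0.29, at 0.48 ± 0.09. Between stages the block also takes out how unlike the replicates were. The biological coefficient of variation was 0.148 without and 0.0549 with that block. Counting error is small at these depths for most members, and the number of libraries limits precision. This does not hold for members with few reads, such as Rpl39l (1.76 to 8.12 CPM). For Rps27, Rps23 and Rpl34 the division of reads with their copies limits it too.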

Additional observations from a re-analysis of the deposited data

Results flagged for a closer look

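With a replicate block per stage, the effect of AF10 deletion differed between SGC0946 and DMSO on day 4 by a log2 value of -0.80 for Rpl26, -0.66 for Rps16 and -0.53 for Rpl21 (edgeR interaction test). It differed between day 4 in DMSO and MEFs by 0.55 for Rpl21. Summed with their copies, Rpl26 stood at -0.61 and Rpl21 at -0.50 between treatments, and Rpl21 at 0.45 between stages. The values by replicate below are without the reads of the copies. Without block 0 members passed for either difference. By replicate, the difference between treatments was -0.69 and -0.91 for Rpl26 and -0.74 and -0.58 for Rps16. For Rpl21 it was -0.28 and -0.79 between treatments, and 0.38 and 0.70 between stages. The fit that called these differences used the same replicates, so their shared sign adds no support. Both differences of Rpl21 contain its effect of AF10 deletion in DMSO, so they are not separate results. Groups of 2 libraries are too small for a check of single libraries that stand apart.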

How the results depend on the processing

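The comparison of day 4 with MEFs kept its direction under every scaling, filter, tool, block and left-out library tried. It stayed within 1.5 times its count of members under every scaling, filter, tool and block. The share of all genes called is not given for each of these fits. Of the 67 members with no copy row, 65 were higher in AF10-deleted cells and 63 in fl cells. The share of all genes called is not set beside these 2 counts. In the other comparisons all counts were 0 with any library left out. The replicate block over both stages gave 2 members lower in SGC0946 in AF10-deleted cells, Rpl26 and Rps16 (adjusted p = 0.017 and 0.045), and changed no other of these counts from 0. The block per stage gave 1 member higher for AF10 deletion in MEFs, 10 higher for it in DMSO, 3 lower for it in SGC0946, 7 higher and 1 lower for SGC0946 in fl cells, 7 lower for it in AF10-deleted cells, 3 lower for the interaction of AF10 deletion and SGC0946, and 1 higher for that of AF10 deletion and stage. With copies summed as well, these counts were 1, 11, 2, 7, 1, 8, 3 and 1. The shares of all genes with copies summed are given above for AF10 deletion in MEFs and in DMSO alone. For the other summed counts, and for the replicate block over both stages, they are not given here. Without summing, the counts for SGC0946 in fl cells were close to the shares of all genes or below them. DESeq2 gave 1 higher for AF10 deletion in SGC0946, 1 lower for SGC0946 in fl cells and 1 lower for it in AF10-deleted cells. The ratio of the members' share in Day4_fl_DMSO to that in MEF_fl was 2.13 on expected counts against 1.79 on TPM. The cause of these differences was not tested, beyond what each block removes. Of the values of named members under the alternatives, 769 kept their side of the threshold and 50 passed it only there. Reads shared with copies and 2 libraries per group limit single members.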

Other observations

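Replicate 2 was lower than replicate 1 for many members in every group. With a term for the replicate within each stage, 26 members were lower and 0 higher in replicate 2 on day 4, and 17 lower and 1 higher in MEFs (edgeR, adjusted p under 0.05), against 7.71% lower and 8.7% higher of all genes on day 4 and 15.4% and 12.9% in MEFs. The members' median was -0.14 on day 4 and -0.15 in MEFs, with 3 and 12 of 75 positive, and that of all genes was 0.00 in both. On day 4 Rpl39l stood at -1.55 ± 0.14, Rps28 at -0.42 ± 0.06 and Rpl37 at -0.33 ± 0.06. In MEFs Rps25 stood at -0.51 ± 0.09, Rpl35 at -0.40 ± 0.08, and Rps14 was the member that was higher, at 0.45 ± 0.07. The labels do not say what the replicate numbers stand for.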
